A study of Homo sapiens with 6 samples.

Results

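Genes of the Wnt and Notch signalling pathways were compared between A375 melanoma cells with wild-type NRAS and cells with the activating NRAS mutation Q61K. The genes were chosen by symbol: every row of the expression table named as a WNT, FZD, SFRP1 to SFRP5, NOTCH1 to NOTCH4, JAG1 or JAG2, or DLL1, DLL3 or DLL4 gene, and CTNNB1. The choice gave 8 of 770 genes. They were the Wnt ligand genes WNT5A and WNT5B, the secreted Wnt antagonist genes SFRP1 and SFRP2, CTNNB1, the Notch ligand genes JAG1 and DLL4, and the receptor gene NOTCH1. No row had the name of a Frizzled receptor, and the other genes named in the rule were not analysed here.

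Wnt ligands are secreted glycoproteins that bind Frizzled receptors. In the canonical branch their binding stabilises beta-catenin, the product of CTNNB1, which then acts with TCF and LEF factors in the nucleus. A second pool of beta-catenin links cadherins to the actin cytoskeleton. WNT5A and WNT5B are best known for beta-catenin-independent signalling, and WNT5A is known in melanoma for its association with motility and invasion. In the Notch pathway a ligand on one cell, such as JAG1 or DLL4, triggers cleavage of a Notch receptor on its neighbour, and the freed intracellular part acts with the DNA-binding protein RBPJ.

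A375 is an established human melanoma cell line. Both lines carry the BRAF V600E mutation and, per their catalogue names, a luciferase reporter. They differ in NRAS, which is wild type in one and Q61K in the other. Neither was treated, both were grown in serum-supplemented medium and analysed within 5 population doublings of thawing, and 3 samples of total RNA were taken from each. The labels do not say whether the mutant line is a single clone or whether the samples of a line came from separate cultures, so p-values measure the spread between these samples, which may be technical. Transcripts of NRAS and BRAF were not analysed here, and the genotypes were not checked. Of 19 listed melanocyte-lineage markers 4 were measured (CSPG4, ERBB3, MCAM and SOX9), and all 4 were above the detection floor in both lines. All 4 were called higher in mutant cells under each of 5 scalings. Of all tested genes 62.1% were called higher as deposited and 33.0% to 38.5% under the other 4 scalings. The pigment cell markers MITF, PMEL, MLANA and TYR were not analysed here, so the 4 measured genes do not give the melanocytic state of either line.

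The NanoString nCounter assay counts fluorescent barcodes hybridised to RNA, with 1 probe pair per gene and no amplification. Before scaling, the samples held between 1158504 and 1264655 counts in total. Values were deposited as normalized counts, in which each sample had been multiplied by 1 factor, between 0.898 and 0.903 for wild-type samples and between 1.11 and 1.16 for mutant ones. These factors brought 30 housekeeping genes to 1 level, a geometric mean of 728 to 733. A detection floor of 129.7 counts was set from negative control probes, which were deposited without the factors, and was applied to the normalized counts of genes. It therefore does not follow the factor of each sample. By their means over all samples, 454 of 740 genes that were not housekeeping genes lay above it. With values before scaling taken as raw counts, wild-type replicates 2 and 3 agreed within sampling noise (chi-square per degree of freedom 1.08, p = 0.125). The other wild-type pairs differed (1.38 and 1.39). Replicates 2 and 3 were therefore counted as 1 sample in means and SDs, so that n = 2 for wild type and n = 3 for mutant cells. A wild-type SD thus leaves out the spread between replicates 2 and 3 and can be much smaller than the spread of the samples. The agreement does not show that replicates 2 and 3 are 1 extract. Replicates 1 and 2 had a higher log2 correlation (0.9984) than replicates 2 and 3 (0.9965). The fit used all 6 samples, and the adjusted p with the pair of replicates 2 and 3 counted once is given beside it. Log2 differences are mutant minus wild type of value plus 1, and adjusted p-values are Benjamini-Hochberg values over all 454 tested genes.

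The comparison asked how expression of these genes differed when NRAS Q61K was present beside BRAF V600E. SFRP1 was 2.92-fold and CTNNB1 1.65-fold higher in the mutant line, and both held that direction under each of 5 ways of scaling the samples. NOTCH1 was 1.18-fold and JAG1 1.10-fold higher on the deposited scale, and both had the opposite sign under the other 4 scalings. WNT5A was not called on the deposited scale and was called lower under the other 4. WNT5B, SFRP2 and DLL4 stayed below the floor in every sample. Of the 5 members above the floor, 4 were called higher and 0 lower at an adjusted p under 0.05 (limma), and no member had an unadjusted p under 0.05 in the lower direction. For comparison, 62.1% of all tested genes were called higher and 20.9% lower. With the wild-type pair counted once the members' counts were again 4 and 0, beside 57.9% and 20.3% of all tested genes. The median log2 difference was 0.24 over the 5 members and 0.32 over all tested genes. These are bulk samples, in which a higher level per cell and a larger share of expressing cells cannot be told apart.

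The promoter windows of 4 of the 5 members above the floor are shown to set the genes whose levels are described here beside their start sites. They are RefSeq windows on GRCh38.p14, 300 bases from 250 before to 50 after the annotated start, read 5′ to 3′ on the gene's strand. Capitals mark the GC box letters GGGCGG on either strand and the TATA letters TATAA on either strand.
WNT5A (chr3:55487257-55487556, minus strand): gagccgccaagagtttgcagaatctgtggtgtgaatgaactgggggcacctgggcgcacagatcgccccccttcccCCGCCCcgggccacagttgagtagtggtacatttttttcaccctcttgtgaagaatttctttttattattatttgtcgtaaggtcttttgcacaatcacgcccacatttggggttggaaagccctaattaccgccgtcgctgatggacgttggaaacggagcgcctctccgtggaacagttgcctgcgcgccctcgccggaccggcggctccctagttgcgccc
CTNNB1 (chr3:41199255-41199554, plus strand): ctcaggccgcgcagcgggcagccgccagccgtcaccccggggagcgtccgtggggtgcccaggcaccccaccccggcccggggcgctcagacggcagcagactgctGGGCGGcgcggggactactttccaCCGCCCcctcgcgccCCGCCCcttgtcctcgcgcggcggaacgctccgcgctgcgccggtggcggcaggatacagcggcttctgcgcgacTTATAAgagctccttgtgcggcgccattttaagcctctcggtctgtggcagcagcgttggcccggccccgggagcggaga
JAG1 (chr20:10673950-10674249, minus strand): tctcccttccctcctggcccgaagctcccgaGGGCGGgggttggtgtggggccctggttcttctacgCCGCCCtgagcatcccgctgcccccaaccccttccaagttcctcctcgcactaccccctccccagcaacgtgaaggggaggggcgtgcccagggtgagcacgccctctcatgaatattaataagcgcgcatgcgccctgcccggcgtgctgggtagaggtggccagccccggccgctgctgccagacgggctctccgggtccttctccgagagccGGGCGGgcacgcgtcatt
NOTCH1 (chr9:136545999-136546298, minus strand): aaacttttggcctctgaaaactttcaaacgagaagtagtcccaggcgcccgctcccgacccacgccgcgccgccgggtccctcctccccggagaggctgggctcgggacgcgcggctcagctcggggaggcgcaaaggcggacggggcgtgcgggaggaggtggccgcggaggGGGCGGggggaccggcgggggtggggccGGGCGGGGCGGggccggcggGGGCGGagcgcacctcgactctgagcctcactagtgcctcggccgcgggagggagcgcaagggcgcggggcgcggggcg
The CTNNB1 window held 3 GC boxes and TATAA 29 bases before the start, where the letters overlap a match on the opposite strand. The JAG1 window held 3 GC boxes, NOTCH1 4, of which 2 overlap by 1 letter, and WNT5A 1, and none of these 3 windows held TATAA. Of 35116 promoter windows of the same length, 45.0% held GGGCGG and 20.4% held TATAA. The windows had 74.0% G and C in CTNNB1, 68.7% in JAG1, 77.0% in NOTCH1 and 56.3% in WNT5A, against a median of 58.7% over all windows. Letters that are typical of sites for TCF/LEF (CTTTGA), RBPJ (TGGGAA), AP-1 (TGANTCA) and ETS factors (CCGGAA) were searched on both strands. None was found in these 4 windows or in those of DLL4, SFRP2 and WNT5B. The shares over all windows were 12.9%, 24.0%, 7.71% and 17.2%.

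WNT5A, the ligand gene, had 1548, 1480 and 1465 normalized counts in wild-type replicates 1, 2 and 3. It had 1441, 1499.9 and 1507 in mutant replicates 1, 2 and 3. The lowest and the highest value came from mutant replicate 1 and wild-type replicate 1, and the lines overlapped. The means were 1510.2 ± 52.9 (SD, n = 2) and 1483 ± 36.1 (SD, n = 3). The log2 difference, mutant minus wild type, was -0.01 with a 95% interval from -0.10 to 0.07 (limma, adjusted p = 0.717, or 0.584 with the pair counted once). The interval covers the spread between samples and not the choice of scaling.

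WNT5B, the closest relative of WNT5A in this set, was near the bottom of the range. Wild-type samples had 2.69, 1.65 and 1 counts, and mutant samples 26.5, 9.81 and 3.92. All mutant samples were above all wild-type samples, but the spread within the mutant line was wide and mutant replicate 1 held the highest value. Every value was far below the floor and below the brightest negative control probe, which reached between 111.8 and 143.8 counts in each sample. No fold is given. With no floor, WNT5B was called higher (limma, adjusted p = 0.0444), where 53.0% of all 740 genes were called higher and 17.0% lower.

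SFRP1, which encodes a secreted protein that binds Wnt ligands through a Frizzled-like domain, had 2445, 2268 and 2317 counts in wild-type samples. In mutant samples it had 6960, 6803 and 6735 counts. The lines were far apart, with every mutant sample above 2 times the highest wild-type value. The means were 2369 ± 108 (SD, n = 2) and 6833 ± 115 (SD, n = 3). The log2 difference was 1.54 ± 0.038 (SE), or 2.92-fold (limma, adjusted p = 1.94e-07, or 2.99e-06 with the pair counted once). Of the 454 tested genes, 52 had a larger log2 difference in this direction.

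SFRP2, another member of the same antagonist family, was at the lowest value of the table in all 6 samples. It stood at 1 in every wild-type sample and at 1.16, 1.11 and 1.12 in the mutant samples. The mutant values equal the smallest value of any gene in each sample, 1 count multiplied by that sample's factor. The small offset between the lines is thus the factor itself, and 75 genes of the panel sat at this minimum in every sample. SFRP1 was thus the 1 antagonist of the set with values above the floor.

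CTNNB1 had 8853, 8634 and 8695 counts in wild-type samples. The mutant samples had 14555, 14558 and 14098. The lines did not overlap, and the gap between them far exceeded the range within either. The means were 8759 ± 133 (SD, n = 2) and 14404 ± 265 (SD, n = 3). The log2 difference was 0.72 ± 0.029 (SE), or 1.65-fold (limma, adjusted p = 1.55e-06, or 2.37e-05 with the pair counted once). It lay 0.40 above the median of all tested genes, and 121 of these had a larger difference in this direction. The counts report the transcript, and beta-catenin is regulated in large part through the stability of its protein, which was not measured.

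**Figure D1:**
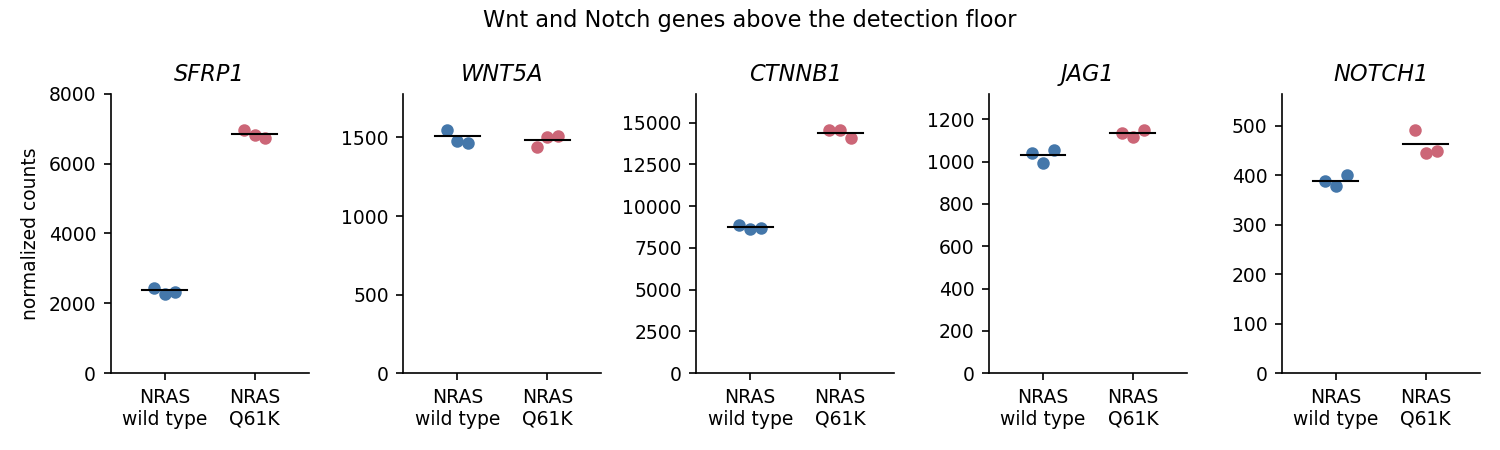
Normalized counts (linear axes from 0) of the 5 Wnt and Notch genes above the floor, with 1 point per sample and a line at the mean, in which wild-type replicates 2 and 3 count once. SFRP1 and CTNNB1 are well separated between the lines, JAG1 and NOTCH1 are narrowly separated on this scale and have the opposite sign under the other 4 scalings, and WNT5A overlaps.

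JAG1, the Notch ligand gene, had 1042, 995.5 and 1053 counts in wild-type samples. The mutant samples had 1137, 1115 and 1149.5. The lines did not overlap, with a gap between them close to the range of the wild-type samples. The means were 1033 ± 12.7 (SD, n = 2) and 1134 ± 17.7 (SD, n = 3). The log2 difference was 0.14 ± 0.034 (SE), or 1.10-fold (limma, adjusted p = 0.00902, or 0.0164 with the pair counted once). This was -0.18 from the median of all tested genes, and 300 of these had a higher difference. Its sign turned under the other 4 scalings.

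DLL4, a Notch ligand best known in sprouting endothelium, had 4.49, 1 and 1 counts in wild-type samples. The mutant samples had 5.61, 2.04 and 3.92. The lines overlapped, and every value was near the minimum of the table.

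**Figure D2:**
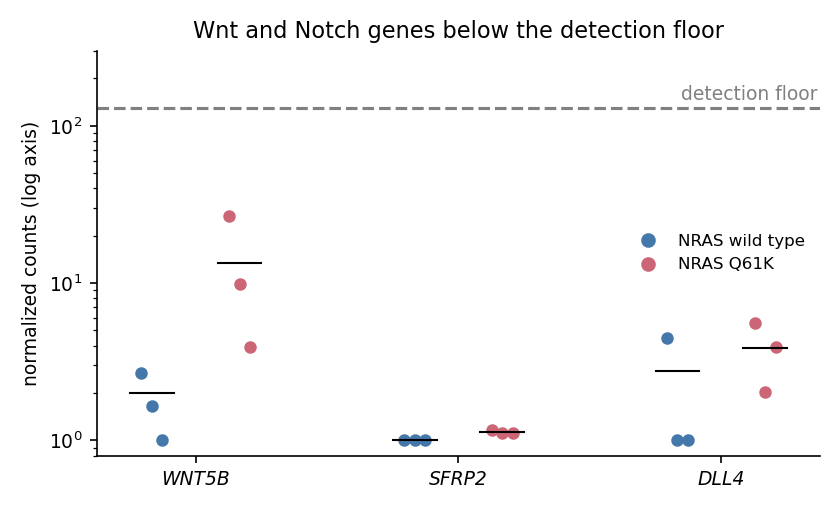
Normalized counts (log axis) of WNT5B, SFRP2 and DLL4, with 1 point per sample, a black line at each mean and the detection floor of 129.7 dashed. All 18 values lie far under the floor, and the highest is WNT5B in mutant replicate 1 at 26.5.

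NOTCH1, the receptor gene, had 389, 378 and 401 counts in wild-type samples. The mutant samples had 491, 444 and 449.6. The lines did not overlap, and mutant replicate 1 stood above the other 2 mutant samples. The means were 389 ± 0.491 (SD, n = 2) and 462 ± 25.7 (SD, n = 3), where the small wild-type SD arises because replicate 1 lies close to the average of replicates 2 and 3. The log2 difference was 0.24 ± 0.049 (SE), or 1.18-fold (limma, adjusted p = 0.00379, or 0.00981 with the pair counted once). It was -0.08 from the median of all tested genes. Without mutant replicate 1 the log2 difference was 0.20. Its sign turned under the other 4 scalings.

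On the deposited scale all samples of one line lay above all samples of the other for 4 of the 5 members above the floor, and for 84.1% of all tested genes. The members spanned much of the middle of the panel's range. SFRP1 and CTNNB1 lay above the median of all tested genes, and NOTCH1, JAG1 and WNT5A lay below it.

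**Figure D3:**
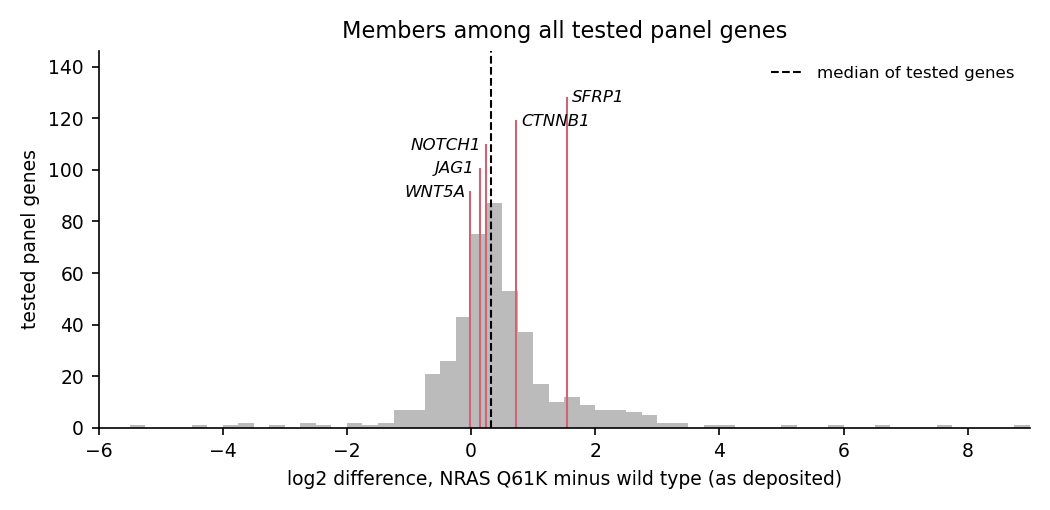
Histogram of the fitted log2 differences (mutant minus wild type, deposited scale) of all 454 tested genes, in bins of 0.25, with the median of 0.32 dashed and the 5 members marked by red lines. SFRP1 at 1.54 and CTNNB1 at 0.72 lie right of the median, and NOTCH1 at 0.24, JAG1 at 0.14 and WNT5A at -0.01 lie left of it.

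How the samples were put on a common scale decided the sign of the smaller differences. The housekeeping genes had a geometric mean of between 808 and 814 in wild-type samples and between 627 and 661 in mutant ones before the factors were applied, so the factors raised all mutant values relative to wild-type values. Without the factors JAG1 had 1161, 1103 and 1172 counts against 979, 1004 and 1027, wild type first, with every mutant sample below every wild-type sample. WNT5A likewise had 1724, 1639.8 and 1631 against 1241, 1351 and 1345.5, again without overlap. NOTCH1 had 433, 419 and 446 against 423, 399.8 and 401.5, and there the lines overlapped. SFRP1 and CTNNB1 were still separated, with 2724, 2513 and 2579 against 5993, 6127 and 6015 for SFRP1 and 9862, 9565 and 9678 against 12533, 13111 and 12590 for CTNNB1.

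Without the factors SFRP1 was 2.32-fold and CTNNB1 1.31-fold higher (limma, adjusted p = 3.71e-07 and 4.31e-05). JAG1 and WNT5A were called lower, by 1.14-fold and 1.27-fold (limma, adjusted p = 0.00337 and 0.000474), and NOTCH1 was not called, with a log2 difference of -0.08 and an interval from -0.18 to 0.01. Over all tested genes this scaling called 38.5% higher and 35.2% lower. After the samples were set to equal medians, SFRP1 was 2.13-fold and CTNNB1 1.21-fold higher, and JAG1, NOTCH1 and WNT5A were lower by 1.24-fold, 1.15-fold and 1.38-fold. That scaling called 33.0% of all tested genes higher and 45.4% lower. Quantile normalization made the same calls for the 5 members, with 33.7% and 45.2% of all tested genes. Scaling to the positive control probes, which are spiked in and carry no sample RNA, gave 2.34-fold for SFRP1 and 1.32-fold for CTNNB1 and called WNT5A lower by 1.26-fold, with 34.8% and 30.6% over all tested genes. The medians of all tested genes under these 4 scalings were -0.01, -0.13, -0.12 and 0.00 (log2).

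**Figure D4:**
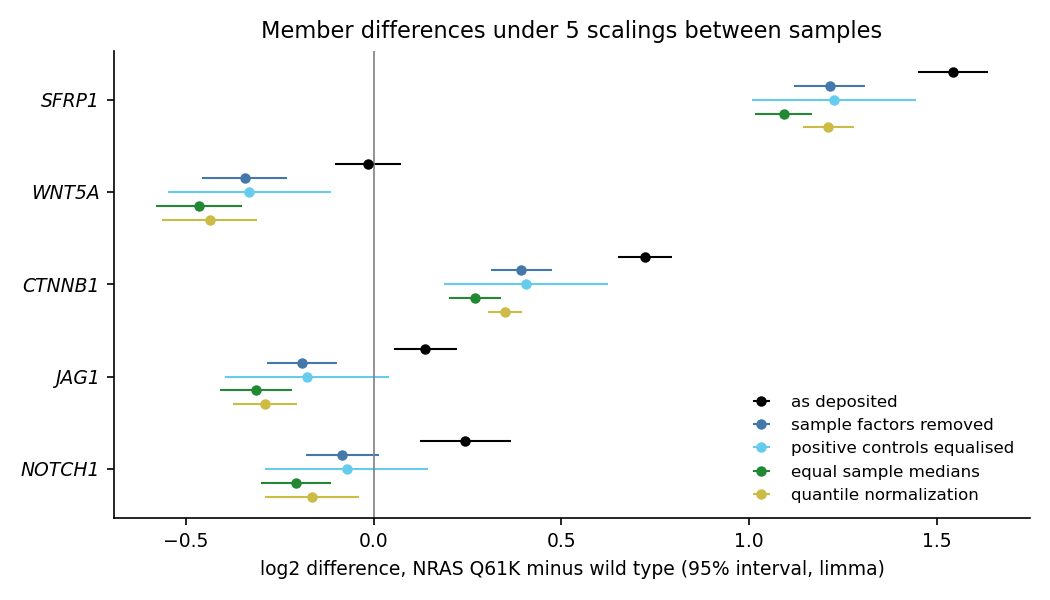
Log2 differences (mutant minus wild type, x axis) of the 5 members above the floor under 5 scalings between samples, as points with 95% intervals from limma. SFRP1 and CTNNB1 lie right of 0 under all 5, while JAG1 and NOTCH1 lie right of 0 as deposited and left of 0 under the other 4, and the interval of WNT5A spans 0 as deposited alone.

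Ratios of 2 genes within a sample do not depend on the sample's factor, and 10 such ratios were formed between the 5 members. SFRP1 over WNT5A was 1.58, 1.53 and 1.58 in the wild-type line against 4.83, 4.54 and 4.47 in the mutant line, a ratio 2.95-fold higher. CTNNB1 over WNT5A was 5.72, 5.83 and 5.93 against 10.1, 9.71 and 9.36, or 1.67-fold higher. CTNNB1 over SFRP1 was 3.62, 3.81 and 3.75 against 2.09, 2.14 and 2.09, so the ratio of these genes also differed. Between ligand and receptor of the Notch pathway, JAG1 over NOTCH1 was 2.68, 2.63 and 2.63 against 2.31, 2.51 and 2.56, a ratio 1.08-fold lower. NOTCH1 over WNT5A was 1.20-fold and JAG1 over WNT5A 1.11-fold higher in mutant samples. None of the 10 ratios overlapped between the lines. On the deposited scale 84.1% of single tested genes did not overlap either, and the share over ratios of other gene pairs was not computed. The 10 ratios come from 5 genes and are not independent. The exact 2-sided permutation p was 0.1 for each, and 0.1 after Benjamini-Hochberg adjustment over the 10, which is the smallest p that 3 samples against 3 allow. With the wild-type pair counted once it was 0.2. The ratios give unequal change between genes and not which gene changed, and their size within a sample also depends on the probes.

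Further genes of both pathways came from 7 lists, of which 20 genes other than the members were on the panel and 14 were above the floor. Of these, 8 were called higher and 6 lower on the deposited scale (limma), beside 62.1% and 20.9% of all tested genes, with a median log2 difference of 0.25 against 0.32 over all tested genes. Of 21 listed Wnt receptor, co-receptor and secretion genes and of 11 listed Wnt inhibitors, none was analysed here apart from the members. Among components of the beta-catenin destruction complex and its transcriptional partners 1 of 18 was measured. This was APC, a scaffold of the complex, at 405 ± 17.5 and 479 ± 14.5 counts without and with the mutation. It was 1.19-fold higher on the deposited scale (limma, adjusted p = 0.00434) and had the opposite sign under the other 4 scalings.

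Of 13 listed junction partners of beta-catenin, 4 were on the panel. CDH2, encoding N-cadherin, was 1.50-fold higher at 2258 ± 59.8 against 1502 ± 3.34 (limma, adjusted p = 5.23e-06). CTNND1, encoding p120-catenin, which binds the cadherin tail next to the membrane, was 1.49-fold higher at 2700.0 ± 22.4 against 1817 ± 6.50 (limma, adjusted p = 5.48e-06). The wild-type samples had 1504, 1489 and 1510 counts of CDH2 and 1821, 1767 and 1857 of CTNND1. These values spread more widely than the wild-type SDs show. Both genes were called higher under all 5 scalings, as CTNNB1 was. CDH11, encoding cadherin 11, was below the floor at 73.7 ± 12.6 and 89.1 ± 8.43, and CDH1, encoding E-cadherin, sat at the table's minimum in all samples.

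Of 22 listed genes known to respond to beta-catenin in some tissue, 12 were on the panel and 9 above the floor. Of these, 3 were called higher and 6 lower under each of the 5 scalings, with a median log2 difference of -0.18 on the deposited scale. Of all tested genes 62.1% were called higher and 20.9% lower as deposited, and 33.0% to 38.5% higher and 30.6% to 45.4% lower under the other 4 scalings. FN1, encoding fibronectin, was 10.8-fold higher at 6186 ± 168 against 582 ± 42.6. TWIST1, encoding a mesenchymal transcription factor, was 4.53-fold higher at 601 ± 27.2 against 133 ± 3.90 (limma, adjusted p = 2.72e-07). NRCAM, encoding a neuronal cell adhesion molecule, was at least 2.55-fold higher, since its wild-type mean of 80.9 lay below the floor and the floor was used in its place. It passed the floor through its mutant samples alone. VEGFA, which encodes a growth factor for blood vessels, was 1.95-fold lower at 1063 ± 4.30 against 2083 ± 31.8. JUN was 3.45-fold lower at 319 ± 26.5 against 1110 ± 38.3 (limma, adjusted p = 1.04e-06). MYC was 1.90-fold lower at 410 ± 57.2 against 769 ± 19.5 (limma, adjusted p = 0.000162). PLAUR was 1.14-fold lower. SNAI2 was at least 1.2-fold lower, since its mutant mean of 106 lay below the floor, which it passed through its wild-type samples alone. The 6 lower genes included CD44, a cell surface glycoprotein, at 9005 ± 96.9 against 9563 ± 198, which was called on the deposited scale (limma, adjusted p = 0.0388) but not with the wild-type pair counted once (0.0683), with the replicate block (0.066) or in any of the 6 fits without 1 sample (0.0555 to 0.117). The genes of this list have other regulators too, and they did not move in 1 direction.

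On the Notch side, 2 of 24 listed processing and modification genes were on the panel. ADAM17, encoding a protease able to cleave Notch receptors at the cell surface, was 1.18-fold higher at 1228 ± 7.52 against 1051 ± 53.6 on the deposited scale (limma, adjusted p = 0.00117), with the opposite sign under the other 4 scalings. EGFL7, encoding a secreted protein that binds Notch receptors, was below the floor at 48.5 ± 14.3 and 16.8 ± 0.940 in mutant and wild-type cells. Of 14 listed transcription and response genes, RBPJ was the 1 measured. It was 1.64-fold higher, at 6022 ± 158 against 3696 ± 115 (limma, adjusted p = 3.95e-06), and was called higher under all 5 scalings. Direct Notch targets of the HES and HEY families were not analysed here, so no readout of these targets is given.

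**Figure D5:**
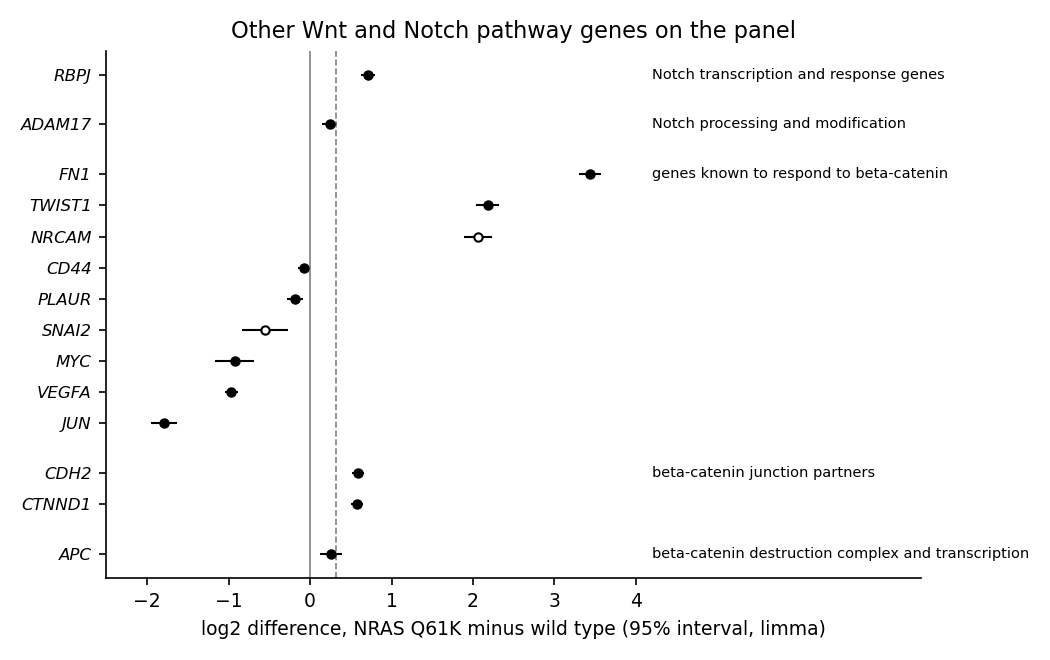
Fitted log2 differences (mutant minus wild type, deposited scale, x axis) with 95% intervals of the 14 tested genes from the further pathway lists, with 0 as a solid and the median of all tested genes, 0.32, as a dashed line. Open circles mark NRCAM and SNAI2, which had 1 line below the floor, so that the fitted value is no measured fold. RBPJ, CDH2 and CTNND1 lie right of the median, APC and ADAM17 lie between both lines and have the opposite sign under the other 4 scalings, and the genes of the beta-catenin response list lie on both sides.

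Markers of the melanocyte lineage and of other cell types that express Notch or Wnt genes were read in the same samples. The 4 measured genes of the melanocyte-lineage list summed to between 3422 and 3459 counts in wild-type samples and between 8544 and 8984 in mutant ones. On the deposited scale ERBB3 was 6.80-fold, CSPG4 3.34-fold, MCAM 1.70-fold and SOX9 1.69-fold higher (limma).

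Of 11 endothelial markers on the panel 5 were above the floor, 3 called higher and 1 lower, beside 62.1% and 20.9% of all tested genes. All 11 summed to between 912 and 998 counts in wild-type samples and between 1478 and 1707.5 in mutant ones. On the deposited scale FLT1 and KDR were at least 2.85-fold and 1.76-fold higher, against the floor. Their wild-type means of 111 and 39.1 lay below the floor, so their mutant values alone brought them above it. ROBO4 was 1.55-fold lower at 173 ± 10.9 against 272 ± 10.6. The calls of FLT1, KDR and ROBO4 held under all 5 scalings. PECAM1 was 1.32-fold higher as deposited (limma, adjusted p = 0.022) but was not called with the wild-type pair counted once (0.0513) or under the other 4 scalings. CD34 was not called as deposited, at 294 ± 44.7 against 263 ± 21.1, and was called lower after quantile normalization. TIE1 and TEK, also on this list, were at the minimum in wild-type samples and at 90.3 ± 9.68 and 12.6 ± 10.4 in mutant samples, below the floor. FLT4 was at the minimum throughout.

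Of 11 fibroblast and mural markers 4 were above the floor, 3 called higher and 0 lower, beside 62.1% and 20.9% of all tested genes. The 3 called, PDGFRB, LUM and FAP, had wild-type means of 91.9, 92.1 and 116, below the floor. Their mutant values alone brought them above it. All 11 markers summed to between 617 and 647 counts in wild-type samples and between 1603 and 1844 in mutant ones. On the deposited scale PDGFRB and LUM were at least 5.29-fold and 3.57-fold higher, against the floor. Both were called higher under all 5 scalings. FAP was called higher as deposited, at 149 ± 10.5 against 116 ± 14.4, and lower after quantile normalization. DCN was not called, at 255 ± 46.5 against 218 ± 6.88, and COL1A2 and CNN1 were at the minimum.

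Of 3 leukocyte markers none was above the floor by its mean over all samples. ITGAM had 136 ± 23.7 against 117 ± 17.9, and PTPRC was at the minimum. Of 15 epithelial markers 3 were above the floor, 2 called higher and 0 lower, beside 62.1% and 20.9% of all tested genes. All 15 summed to between 1057 and 1231 counts in wild-type samples and between 2407 and 2560.5 in mutant ones. CLDN4 was 4.35-fold higher as deposited, at 1847.5 ± 39.3 against 438 ± 53.1, and was called higher under all 5 scalings. CLDN7 was 1.25-fold higher as deposited alone, and GRHL2 was not called, at 175 ± 41.1 against 148 ± 14.3. Below the floor, KRT7 had 42.6 ± 6.26 against 122 ± 1.05, OVOL2 30.7 ± 8.96 against 95 ± 15.4 and CGN 2.44 ± 2.25 against 59.3 ± 7.56. EPCAM and CDH1 were at the minimum. The part of any of these marker levels in the differences of SFRP1, CTNNB1, JAG1 and NOTCH1 was not tested.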

How the data were processed

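Each of 6 RNA samples, 3 per line, was read on the nCounter PanCancer Progression panel, and samples were grouped by their titles. Per the deposited values, the signal is a background-subtracted count times a factor particular to the sample, with 1 as the lowest value (770 genes, 8 negative and 6 positive control probes, the controls unscaled). The software is not given in the sources used here. With the factors found from the steps between values, 100% of 1861 values between 1.5 and 400 were whole within 0.03. The 30 housekeeping genes are not marked in the deposited table and were named from knowledge of the maker's panels. Raw counts are known only up to a constant, so no count model was used in the fit. The chi-square between replicates did take the values before scaling as raw counts, so its p-values are approximate. The floor was the mean of the unscaled negative controls (31.7) plus 2 SD (49.0), set against each gene's mean normalized count over the samples. A gene with 1 line below the floor could thus pass it through the other line alone, which favours a call in that line's direction. The test was limma 3.58.1 (R 4.3.3, no trend, 2-sided) for genes above the floor, on log2(value + 1), a scale that understates changes of low genes, with Benjamini-Hochberg adjustment over 454 genes. The fit was tested on simulated data with independent noise, equal in relative size for all genes, and no difference in scaling between samples. That simulation does not bear on how scaling decides the sign of the smaller differences. Where 1 line lay below the floor, a fold is a bound against the floor.

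All rows matching the symbol rule were named, and of each further pathway list the 4 members with the smallest adjusted p, or all members where 5 or fewer were on the panel. CD44, JUN, MYC, PLAUR and SNAI2, and the markers of cell types that are named, were chosen after their values were seen. The members, lists and rules were chosen with earlier results of these data known. Alternatives covered scaling, pseudocount, floor, variance trend, replicate block and leaving out each sample. Counting the wild-type pair once was added after the data were seen. Positive controls differed between these samples, so they were separate hybridisations.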

Additional observations from a re-analysis of the deposited data

How the results depend on the processing

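The calls of SFRP1, CTNNB1, JAG1 and NOTCH1 and the absence of a call for WNT5A held under both other pseudocounts, every floor, the intensity trend, the replicate block and each fit without 1 sample. Under those single-sample fits the log2 difference ranged from 1.52 to 1.57 for SFRP1, 0.71 to 0.74 for CTNNB1, 0.20 to 0.27 for NOTCH1, 0.11 to 0.15 for JAG1 and -0.03 to 0.01 for WNT5A, and the median of the members from 0.20 to 0.27. Scaling changed the rest. Without the sample factors 2 members were higher, 2 lower, and the median was -0.08, JAG1 at -0.19, NOTCH1 at -0.08 and WNT5A at -0.34. With positive controls equalised 2 were higher, 1 lower, and the median was -0.07, JAG1 at -0.18, NOTCH1 at -0.07 and WNT5A at -0.33. In that fit every gene had the same SE of 0.111. With equal medians 2 were higher, 3 lower, and the median was -0.21, JAG1 at -0.31, NOTCH1 at -0.21 and WNT5A at -0.47. After quantile normalization 2 were higher, 3 lower, and the median was -0.16, JAG1 at -0.29, NOTCH1 at -0.16 and WNT5A at -0.44. With no floor the median was 0.48, and WNT5B and SFRP2 were also called higher (adjusted p = 0.0444 and 0.0104). All 75 genes at the minimum in every sample were called higher there, because the minimum carries the sample factor.

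Whether the replicate numbers pair the samples was not settled. Deviations of equal-numbered samples correlated at 0.216, 0.053 and 0.066, and those of unequal number at -0.171 to 0.091. Wild-type replicates 1 and 2 correlated best with their own number, and wild-type replicate 3 with another (0.091). With the replicate block 4 members were higher and 0 lower, as without it, and 299 and 93 of all tested genes, against 282 and 95.

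The other pathway genes split 8 and 6 as deposited, 6 and 6 without factors or with positive controls equalised, and 6 and 8 with equal medians or after quantile normalization. With no floor they split 12 and 7. The split was 8 and 5 with the replicate block, in each of the 6 fits without 1 sample and with the wild-type pair counted once, where the call of CD44 was lost (adjusted p = 0.066, 0.0555 to 0.117 and 0.0683), and with the floor at the highest negative control value, where SNAI2 was not tested. Values below the floor cannot be told from probe background.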
